A study of Mus musculus with 12 samples.

Results

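The SLC4 family of bicarbonate and borate transporters was described in mouse corneal endothelium from its 8 genes listed in the expression tables, of 15838 genes listed in all. The members were the rows whose gene symbol was Slc4a11, Slc4a2, Slc4a3, Slc4a4, Slc4a5, Slc4a7, Slc4a8 or Slc4a10. The rule used gene symbols and no measured value, though it was set with earlier results of these data known. Of 10 mouse SLC4 genes looked for, 2 were not listed, Slc4a1 (the anion exchanger of red blood cells) and Slc4a9. What decided whether a gene was listed is not known here, so a gene not listed is not shown to be unexpressed. Descemet membranes with their endothelium were taken from Slc4a11+/+ (WT) and Slc4a11-/- (KO) C57BL/6 mice at 10 weeks of age, WT mice being littermates from heterozygous crosses, and total RNA was sequenced as paired reads of 50 bases. The 12 libraries formed 4 groups of 3: male WT, male KO, female WT and female KO. The KO allele lacked exons 9 to 13 of Slc4a11, so 6 of the 12 libraries carried it.

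Each gene had 1 usable value, the authors' mean log2 CPM (read counts scaled by library size, which was adjusted by the TMM method) over all 12 libraries. That mean joined both genotypes and both sexes, so the WT and KO levels of a gene cannot be told apart in it, and the level of the targeted gene in each library could not be given. Levels per library, their spread and the depth of each library were not analysed here, so no difference between genes carries an error and none was tested. The methods describe the membranes of both corneas as handled in pairs, with 3 mice of each sex and genotype, which gives 12 mice for 12 libraries, whereas the labels describe membranes pooled by genotype. The levels below are a description of the family in this tissue.

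SLC4 proteins are membrane carriers that move bicarbonate or related bases. Some exchange bicarbonate for chloride, some carry it together with sodium, and Slc4a11 stands apart in that it carries protons, hydroxide or ammonia-linked proton equivalents rather than bicarbonate. The corneal endothelium is a single cell layer on the back of the cornea that pumps ions and water out of the stroma, and bicarbonate transport is a known part of that pump. Loss of SLC4A11 in people is a known cause of congenital hereditary endothelial dystrophy, in which the cornea swells and clouds.

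Slc4a4 and Slc4a11 far exceeded the other 6 family members. Slc4a4, the electrogenic sodium bicarbonate cotransporter NBCe1, had a mean level of 11.01 log2 CPM, a geometric mean of 2061 CPM. Slc4a11 had a mean level of 10.71 log2 CPM, a geometric mean of 1676 CPM. They ranked 39 and 46 from the top among the 15838 genes, and 99.8% and 99.7% of genes lay below them. Their geometric means together made 95.4% of the CPM summed over the 8 members, 52.6% from Slc4a4 and 42.8% from Slc4a11. The next member, Slc4a2, lay 4.43 log2 units below Slc4a11, which is 21.6-fold. The Slc4a11 mean includes the 6 KO libraries, so its rank and share in WT endothelium alone are not given.

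The anion exchangers, which swap chloride for bicarbonate and carry no sodium, were at middling levels. Slc4a2 (AE2), which is found in many epithelia, had a mean of 6.28 log2 CPM, or 77.7 CPM, and 85.6% of genes were lower. Slc4a3 (AE3), known from heart and brain, had a mean of 5.31 log2 CPM, or 39.7 CPM, with 72.9% of genes lower. Both lay above the median of all genes, 3.76 log2 CPM.

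The sodium-coupled carriers other than Slc4a4 spread over a wide range of levels. Slc4a8 (NDCBE), which exchanges sodium and bicarbonate for chloride, had a mean of 5.59 log2 CPM, or 48.1 CPM. Slc4a7 (NBCn1), an electroneutral sodium bicarbonate cotransporter, had a mean of 3.50 log2 CPM, or 11.3 CPM, and 46.6% of genes were lower. Slc4a8 was thus above the median of all genes and Slc4a7 a little below it. Slc4a10 (NBCn2), a carrier known from neurons and the choroid plexus, had a mean of 1.24 log2 CPM, or 2.35 CPM. Slc4a5 (NBCe2), the second electrogenic cotransporter of the family, had a mean of 0.65 log2 CPM, or 1.57 CPM, with 16.9% of genes lower. Slc4a4 and Slc4a5 transport in the same electrogenic manner and were at the 2 ends of the family's order on undivided log2 CPM, 10.36 log2 units (1312-fold) apart.

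**Figure D1:**
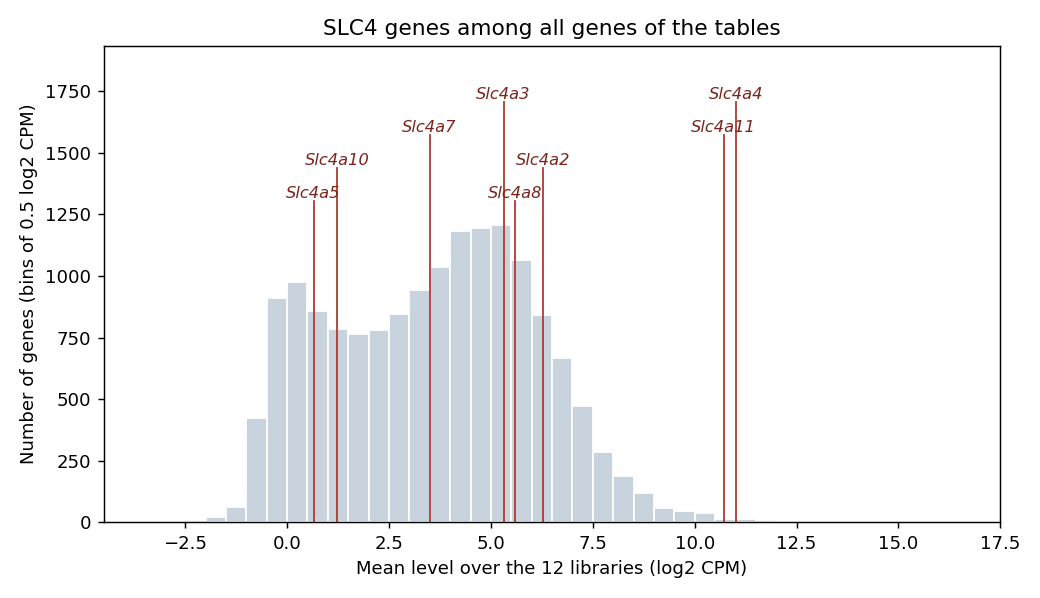
The histogram gives the number of genes (vertical axis) by mean level over the 12 libraries in log2 CPM (horizontal axis, bins of 0.5), and each red line marks 1 SLC4 gene. Slc4a11 and Slc4a4 stand in the upper tail at 10.71 and 11.01, apart from the other 6 genes at 0.65 to 6.28.

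A long transcript yields more fragments than a short one at the same number of molecules, so levels between genes were compared per kilobase of annotated exon. On that scale the leading pair changed places. Slc4a11, with 4998 exon bases, had a level of 8.39 log2 CPM per kilobase, and 99.7% of the 15824 genes with a length were lower. Slc4a4, with 10815 exon bases, had a level of 7.57 log2 CPM per kilobase, 0.82 below Slc4a11, a 1.76-fold difference. On log2 CPM alone Slc4a4 had been 0.30 above Slc4a11, a 1.23-fold difference. The Slc4a11 share of the summed family level per kilobase was 61.5%, and that of Slc4a4 was 35.0%.

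The length used decided the size of that difference. With the longest transcript of each gene, 3196 bases for Slc4a11 and 7931 for Slc4a4, Slc4a11 was 1.01 log2 units higher. With the longest coding sequence, 2586 and 3282 bases, it was 0.05 higher, or 1.03-fold. Slc4a11 was therefore above Slc4a4 under each of the 3 lengths, by a margin that was close to 0 for the coding sequence, and below it on the undivided level. The longest coding sequence covers the part that is translated, whereas fragments were drawn from whole transcripts.

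Behind the leading pair, Slc4a2 was at 3.22 log2 CPM per kilobase of exon, 4.35 log2 units (20.4-fold) below Slc4a4. Slc4a3 followed at 2.21, Slc4a8 at 1.89, Slc4a7 at -0.43, Slc4a10 at -1.45 and Slc4a5 at -1.89. The median of all genes on this scale was 1.79, which left Slc4a8 barely above it. Slc4a3 and Slc4a8 also traded places with the scale, Slc4a3 being 0.32 higher per kilobase of exon and Slc4a8 being 0.28 higher on log2 CPM and 0.45 higher per kilobase of coding sequence. The positions of Slc4a2, Slc4a7, Slc4a10 and Slc4a5 in the order were the same on all 4 scales. Which neighbours in the order differ by more than their spread between libraries cannot be said, because only means were used.

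**Figure D2:**
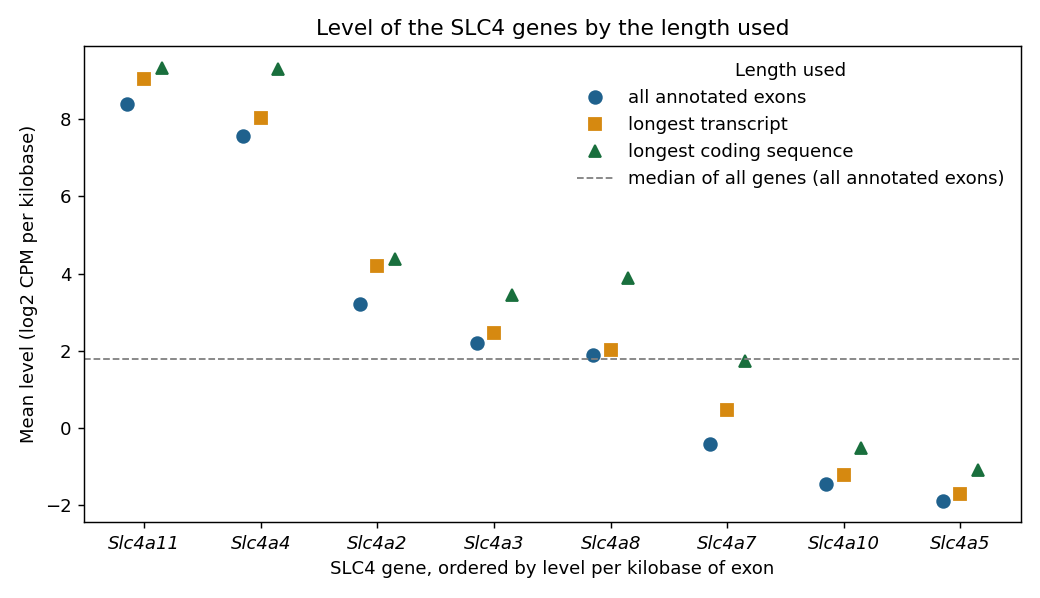
Mean level in log2 CPM per kilobase (vertical axis) of the 8 SLC4 genes (horizontal axis), with circles for all annotated exons, squares for the longest transcript and triangles for the longest coding sequence. Slc4a11 and Slc4a4 lie at 7.57 or higher with each length and the other genes at 4.39 or lower. The dashed line is the median of all genes per kilobase of exon, 1.79.

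As a group, the family had a median of 5.45 log2 CPM against 3.76 for all 15838 genes, and 5 of its 8 genes lay above that median. Per kilobase of exon the family median was 2.05 against 1.79, again with 5 of 8 above. The median member was thus close to the median gene per kilobase of annotated exon, and 2 members stood far above it. The median of all genes was not worked out for the longest transcript or coding sequence.

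The genes differ in structure as well as in level (GRCm38 coordinates, GENCODE M21 annotation). Slc4a11 (ENSMUSG00000074796, chr2:130684113-130697519, minus strand) had the smallest span, 13.4 kb, and its principal transcript of 21 exons was 3196 bases long and 80.9% coding. Slc4a4 (ENSMUSG00000060961, chr5:88886818-89239653, plus strand) spanned 353 kb, with 26 exons and a principal transcript that was 40.8% coding. The 2 most abundant members were therefore at opposite ends of the family's range of gene span. Slc4a10 (ENSMUSG00000026904, chr2:62046462-62326730, plus strand), with a span of 280 kb and also 26 exons, was next to Slc4a4 in span and near the bottom in level. The principal coding sequences ranged from 862 codons in Slc4a11 to 1237 in Slc4a2 (ENSMUSG00000028962, chr5:24423837-24440950, plus strand).

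The other members lay on separate chromosomes. Slc4a3 (ENSMUSG00000006576) was at chr1:75546266-75562172, Slc4a5 (ENSMUSG00000068323) at chr6:83219828-83304945, Slc4a7 (ENSMUSG00000021733) at chr14:14702279-14799940 and Slc4a8 (ENSMUSG00000023032) at chr15:100761747-100823968, all on the plus strand. Their principal transcripts had 23 to 25 exons. The transcript of Slc4a8 was the longest at 11790 bases and 27.7% of it was coding, the smallest share in the family. GC content of the principal transcripts ran from 41.6% in Slc4a7 to 59.0% in Slc4a2, with 54.4% for Slc4a11 and 45.9% for Slc4a4.

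Reads of 50 bases were longer than any stretch of sequence that members share exactly. Among the 28 pairs of members the longest run of identical bases shared by any of their transcripts was 29 bases, between Slc4a7 and Slc4a8, and 0 pairs shared a run as long as a read. The most abundant members shared shorter runs with the rest, for instance 26 bases between Slc4a4 and Slc4a8. Overlap with other genes touched Slc4a2 alone: 1141 of its exon bases, 13.7%, lay under exons of Fastk on the opposite strand, a gene listed at 4.59 log2 CPM. The library kit keeps strand, but the strand setting of the counting is not given in the sources used here, so reads of Slc4a2 and Fastk over these bases cannot be told apart. Slc4a2 exons also overlapped the small nuclear RNA gene Gm22333 by 101 bases.

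The deleted exons are the part of Slc4a11 that the 6 KO libraries should not contribute to. On the principal transcript, exons 9 to 13 ran over chr2:130687159-130688157 (GRCm38, minus strand), an interval of 999 bases with its introns. The 5 exons held 671 bases, all coding, which is 20.995% of the transcript and 25.9% of the coding sequence. Exon 9 was the longest of them with 204 bases and exon 10 the shortest with 94. Division of 671 by 3 leaves 2, so a transcript that joined exon 8 to exon 14 would change reading frame there. The remaining 79.0% of the transcript could still be counted if the KO allele is transcribed. With exons 9 to 13 left out of the length, the mean level of Slc4a11 was 8.60 log2 CPM per kilobase in place of 8.39. The mean joins WT libraries, which can hold reads of these exons, with KO libraries, so neither value is the level of 1 genotype. Exon numbers here follow the annotation, and the sources do not name the transcript by which the targeted exons were numbered.

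The 4 exon ends that border the deletion are shown because they mark where WT and KO transcripts part. Capitals mark the bases that belong to the deleted exons. Each sequence is read 5′ to 3′ on the minus strand of GRCm38, which has the sequence of the Slc4a11 transcript. The ends lie at chr2:130690833-130690862, chr2:130688128-130688157, chr2:130687159-130687188 and chr2:130686928-130686957 in this order.
End of exon 8: gtcatcctggtgctggccccacccaagatg
Start of exon 9: AAAAGCACCAAGACTGCAATGGAGGTGGCA
End of exon 13: CCTCAGCCTGCTTATGAATCTCTTTAAGAG
Start of exon 14: gtctacagaggaaatcattgctctgttcat

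**Figure D3:**
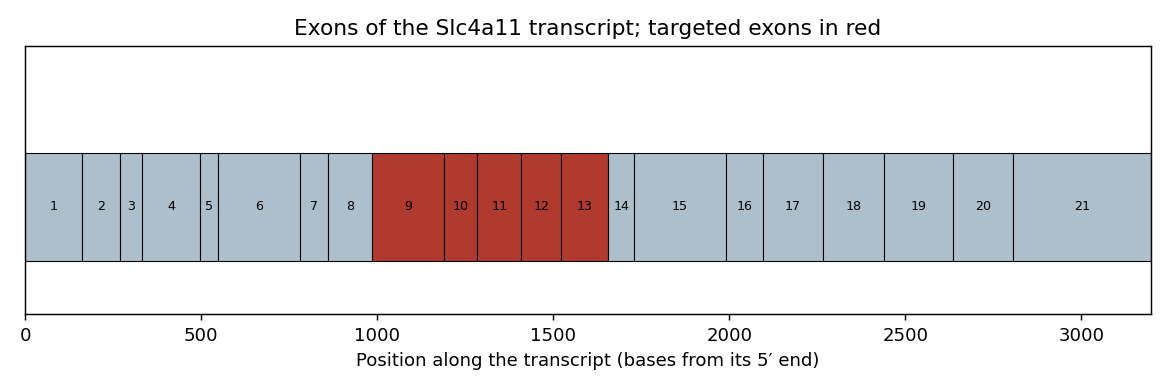
The 21 exons of the principal Slc4a11 transcript drawn to scale along its 3196 bases (horizontal axis), with numbers for the exons and red for exons 9 to 13. The 5 red exons take up 671 bases, 20.995% of the transcript.

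The promoters of the family differed widely in base composition. RefSeq promoter windows (GRCm38.p6, 250 bases before to 50 bases after a transcription start) matched 7 of the 8 members and gave 10 windows, and Slc4a11 had no entry. CG, the pair of bases at which DNA is methylated and which is dense in CpG islands, occurred 50 times in the first Slc4a4 window, more often than in 99.1% of 32851 mouse promoter windows. The median window held 7. The second Slc4a4 window held 3, so Slc4a4 had a CG-rich and a CG-poor start. Slc4a2 held 37 and 16, Slc4a3 held 28 and Slc4a8 held 21, whereas Slc4a5 held 6, Slc4a10 held 4 and 2, and Slc4a7 held 2. Among the 7 members with a window, those at 5.31 log2 CPM or higher each had at least 1 window above the median count. The 3 members at 3.50 or lower had none. Of the 10 member windows 5 were above the median count, about the share that a median gives over all windows. A member with 2 windows also had more ways to have 1 above it, and the second Slc4a4 window was below it. The pattern by level was not tested. The Slc4a5 and Slc4a7 windows began at chr6:83237125 and chr14:14718534, inside the annotated genes. Their annotated gene starts, at chr6:83219828 and chr14:14702279, had no window, so the CG content there is not given. The letters TATAAA, searched on both strands, were found in 3 of the 10 windows (Slc4a5, Slc4a7 and the first of Slc4a10) against 13.6% of all windows, and a match of letters is no shown binding site.

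The first Slc4a4 window held 50 CG against 6 in the Slc4a5 window, whereas the second Slc4a4 window, with 48.3% GC, held 3. The direction of that contrast thus depends on the Slc4a4 start taken, and which start these cells use was not tested. The first Slc4a4 window and the Slc4a5 window are shown for the members with the highest and the lowest mean log2 CPM. Both lie on the plus strand, Slc4a4 at chr5:88887010-88887309 with 80.0% GC and Slc4a5 at chr6:83237125-83237424 with 62.7% GC, and capitals mark each CG.
Slc4a4 promoter: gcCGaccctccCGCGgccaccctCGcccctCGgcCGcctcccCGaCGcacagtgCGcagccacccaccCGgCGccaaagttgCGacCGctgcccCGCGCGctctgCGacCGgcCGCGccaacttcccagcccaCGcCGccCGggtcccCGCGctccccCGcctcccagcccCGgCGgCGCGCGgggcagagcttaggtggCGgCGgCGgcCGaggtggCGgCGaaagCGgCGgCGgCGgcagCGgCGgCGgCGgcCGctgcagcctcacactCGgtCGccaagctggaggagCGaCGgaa
Slc4a5 promoter: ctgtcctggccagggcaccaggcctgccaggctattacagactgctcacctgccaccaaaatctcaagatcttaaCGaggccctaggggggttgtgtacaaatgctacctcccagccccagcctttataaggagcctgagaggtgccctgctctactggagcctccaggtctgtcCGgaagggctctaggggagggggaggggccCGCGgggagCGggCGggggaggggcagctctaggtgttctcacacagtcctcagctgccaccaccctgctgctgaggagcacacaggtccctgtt

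Transporters, enzymes and regulators known to work with SLC4 proteins were read in the same libraries from 7 lists. Of the 43 genes reported from them, 30 were listed in the tables, and per kilobase of exon 18 of the 30 lay above the median of all genes. Among these 30, Bsg, Car3, Aqp1 and Atp1b1 were above Slc4a11 and Slc4a4. At the other end, all 30 were above Slc4a10 and Slc4a5 per kilobase of exon. Only 8.5% and 5.4% of all genes with a length lay below these 2 members. On undivided log2 CPM, Car13 at -0.0001 was below both members. Car2 at 0.74 and Wnk4 at 0.84 were below Slc4a10 at 1.24 on that scale. All values that follow for partner genes are levels in log2 CPM per kilobase of exon.

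Carbonic anhydrases interconvert carbon dioxide and bicarbonate and so supply the substrate. Car3, a cytosolic isoform with low activity, was by far the highest of 7 listed at 11.14, above Slc4a11 at 8.39. Car9 and Car14, membrane enzymes that face the outside of the cell, were at 5.91 and 4.04. Car2, the fast cytosolic isoform, was at -0.53, and Car12 and Car13 were lower at -1.27 and -1.20, while mitochondrial Car5b was at 1.55. Car4, Car8 and Car15 were not listed. Car9 and Car14 were thus nearer to the level of Slc4a4 than Car2 was, whereas Car12 was farther from it. Cytosolic Car3 was above Car9 and Car14 and cytosolic Car2 below them, so levels did not divide membrane from cytosolic enzymes.

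The sodium pump keeps up the sodium gradient that sodium-coupled SLC4 carriers use. Its β1 subunit Atp1b1 was at 9.72, above the leading SLC4 genes. The β subunits Atp1b3 and Atp1b2 were at 6.29 and 3.18, between Slc4a4 and Slc4a3.

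Acid and lactate leave the cell by carriers that act beside bicarbonate transport. Bsg (basigin), a chaperone that brings the lactate carriers to the membrane, was at 12.11, the highest partner gene. The lactate carriers Slc16a1 and Slc16a3 were at 3.34 and 2.73. The sodium-proton exchangers Slc9a2 and Slc9a3 and the lactate carrier Slc16a7 were not listed. Slc16a1 and Slc16a3 were close to Slc4a2 at 3.22 and far under Slc4a4 and Slc4a11.

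Chloride and water routes gave a mixed picture. Aqp1, a water channel, was at 10.97, and the sodium-potassium-chloride cotransporter Slc12a2 at 3.26. The chloride channel Ano1 was at 0.53 and the exchanger Clcn3 at 1.44, both under the median of all genes per kilobase of exon. On undivided log2 CPM, Clcn3 at 5.54 was above the median of 3.76. Cftr was not listed. Of 9 SLC26 anion exchangers, a family that also moves bicarbonate, 5 were listed. Slc26a7 at 3.96 was the only one above the median of all genes per kilobase of exon. On undivided log2 CPM, Slc26a2 at 5.18 was above the median too. Slc26a2, Slc26a11, Slc26a1 and Slc26a6 were at 1.55, 1.53, 0.75 and -0.36. Slc26a7 was above Slc4a2 at 3.22, the highest chloride-bicarbonate exchanger among the SLC4 genes, but per kilobase of the longest transcript it was below, at 4.03 against 4.19.

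The regulators of SLC4 proteins were all listed, and 4 of 6 were above the median of all genes per kilobase of exon. On undivided log2 CPM 5 were, with Ahcyl2 at 5.80 among them. Ahcyl1 (IRBIT), which activates NBCe1, was at 4.44 and its relative Ahcyl2 at 1.61. The kinases Wnk1, Stk39 (SPAK) and Oxsr1, which control ion carriers by phosphorylation, were at 4.73, 3.82 and 3.00, and Wnk4 was at -1.22. Ammonia handling, to which Slc4a11 has been tied, was represented by Glul, glutamine synthetase, at 6.32 and by Glud1, glutamate dehydrogenase, at 4.88. The ammonia channels Rhbg and Rhcg were not listed.

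**Figure D4:**
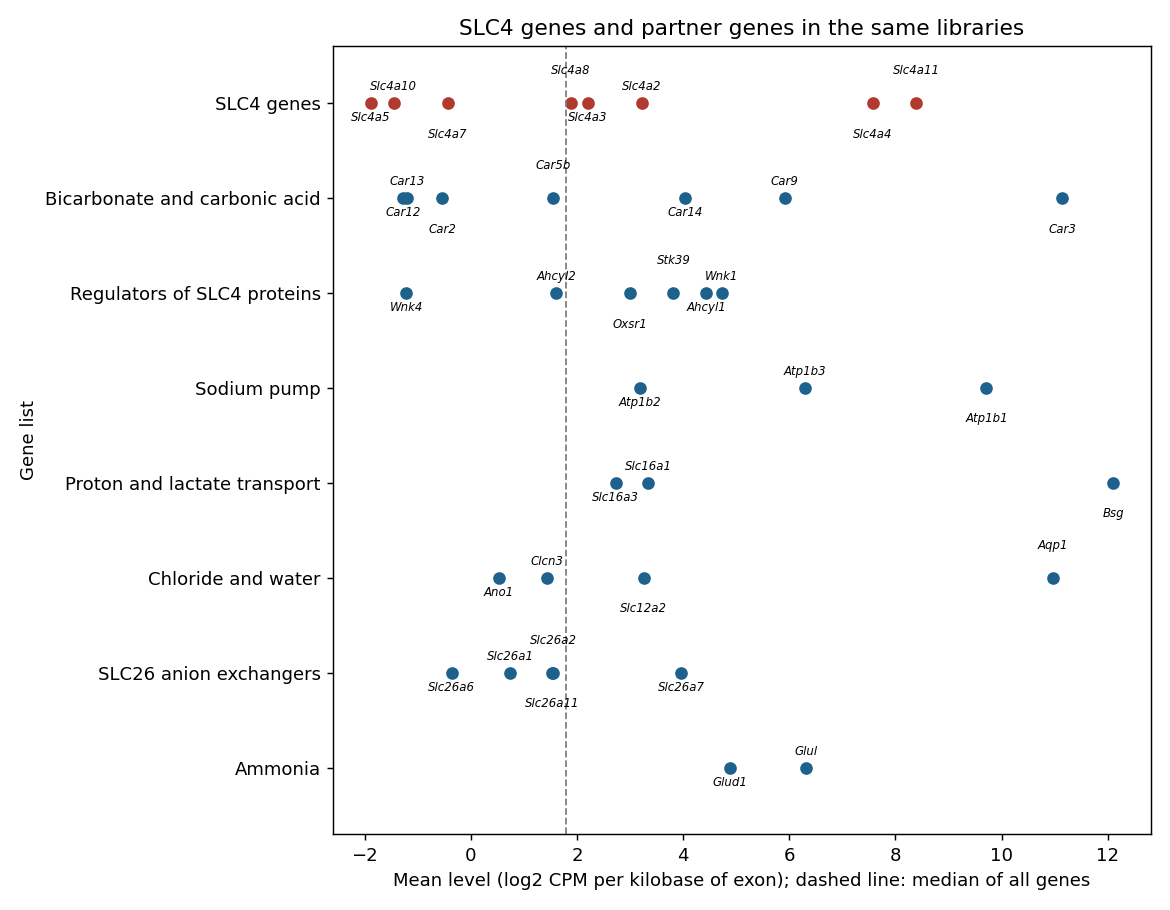
Mean level in log2 CPM per kilobase of exon (horizontal axis) of the 8 SLC4 genes (red) and of the 30 listed partner genes reported (blue), 1 row per gene list, with the median of all genes, 1.79, as a dashed line. Slc4a11 at 8.39 is passed by Bsg, Car3, Aqp1 and Atp1b1, and Slc4a5 and Slc4a10 lie to the left of every partner gene shown.

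The labelled tissue was checked against its markers on the log2 CPM scale. All 12 corneal endothelium markers reported were listed above the median of all genes, with Col8a2 at 12.79, Col8a1 at 11.28 and Tjp1 at 10.22 among them, and 2 of the 12 were Slc4a11 and Slc4a4 themselves. All 5 stromal markers were above it too, with Col1a1 at 11.90, Dcn at 11.89, Lum at 8.49, Kera at 8.42 and Ptgds at 4.19. Of 6 epithelial markers 2 were above it, Aldh3a1 at 10.06 and Krt5 at 5.12, while the defining keratin Krt12 was at 2.60. Muscle markers Myh11 and Acta2 were at 7.69 and 5.64, with Des, Ckm and Myh4 not listed. None of 5 pigment cell, 4 lens or 2 listed nerve markers was above the median, and of 4 leukocyte markers Lyz2 at 4.30 was. In a bulk sample fewer cells of a type and less RNA per cell cannot be told apart, and the part of these other cells in the level of each SLC4 gene was not tested.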

How the data were processed

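Total RNA of corneal endothelium was sequenced by the authors with a stranded low-input kit. Reads were aligned to GRCm38 (mm10) with HISAT2 and modelled with limma, per the labels, with CPM scaled by the TMM method per the study's methods, and the versions, counter and annotation are not given in the sources used here. The 3 deposited tables hold, for the same 15838 genes, the authors' mean log2 CPM over the 12 libraries, which was identical in each table, and 5 columns of the authors' own comparisons (genotype, sex or their interaction, 1 in each table: log fold change, t, p, adjusted p and B), which were not used. Geometric mean CPM was taken as 2 raised to the mean log2 CPM. Level per kilobase was the mean log2 CPM minus log2 of the gene length in units of 1000 bases from GENCODE M21, found for 15824 genes (14 had no entry). Alternatives were 2 other lengths, Slc4a11 without exons 9 to 13, protein-coding genes alone and a filter at 0 log2 CPM. The text names every SLC4 member and every listed gene of the partner lists, except 5 genes of the partner and marker lists that are not reported here and entered no count of a list. Members and lists were chosen with earlier results of these data known. No test was run. The length, percentile and shared-run steps were tested on simulated data. Python 3.11.15 and matplotlib 3.10.9 were used.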

Additional observations from a re-analysis of the deposited data

How the results depend on the processing

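The difference between Slc4a11 and the next SLC4 gene per kilobase, 0.82 log2 units with all annotated exons, was 1.01 with the longest transcript and 0.0454 with the longest coding sequence, and its direction held in both. The number of SLC4 genes above the median of all genes was 5 of 8 against all listed genes, against protein-coding genes alone, against genes of at least 0 log2 CPM and per kilobase of exon. The level per kilobase of every single member rose with the shorter lengths, which is a consequence of dividing by less. No paired analysis was possible because the values used are 1 mean per gene over all libraries. For the same reason leaving out a replicate was not possible, and the values used do not show the effects of depth, Slc4a11 genotype or sex on any level. The groups were balanced for genotype and sex, and the authors' own comparisons by genotype and sex were not used. Annotated length is not the length of the transcripts that these cells use.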
